A study of Oryctolagus cuniculus with 16 samples.

Results

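Intronless genes of about the size of a G-protein-coupled receptor were followed in microglia and oligodendrocyte progenitor cells (OPC) of newborn rabbits. Members were the genes with 1 annotated exon entry and a length of 0.9 to 1.25 kb, outside the mitochondrial genome and outside 1 excluded stretch of chromosome 12, that reached 1 CPM (the count of a gene per M counts of the library) in at least 4 of 16 libraries. There were 158 of them among the 23669 genes of the count tables. They were chosen from 1039 single-exon genes of this size, so that 15.2% of the candidates were expressed at this level and 881, the low candidates, were below it. The rule read the levels themselves, and no finding rests on the fact that members were expressed.

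G-protein-coupled receptors cross the cell membrane by 7 helices and pass signals from nucleotides, lipids, peptides, chemokines and odorants to proteins inside the cell. Many are encoded without an intron in the coding sequence. Microglia, the resident immune cells of the brain, sense injury through receptors of this class, and OPC, from which myelin-forming oligodendrocytes arise, use others during maturation. Olfactory receptors, the most numerous class, are intronless too and lie in large genomic arrays. Intronless genes of this size also include transcription factors, enzymes and retrocopies, the copies of messenger RNA that were inserted back into the genome. The deposited identifiers carry no names and 0 of them matched the table of gene names used here. The members are therefore given by position, and none of them is called a receptor.

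All libraries came from premature New Zealand rabbit kits with moderate to severe intraventricular haemorrhage, bleeding into the fluid spaces of the brain that affects preterm newborns. Kits were injected into the ventricle with 5 µl of an adenovirus that expressed green fluorescent protein, either with PPARg (Ad-PPARg) or without it (Ad-GFP, the control). PPARg is a nuclear receptor that regulates genes of lipid metabolism and inflammation. The CMV promoter of the vector is not restricted to a cell type, and every group had haemorrhage, virus and green fluorescent protein. At day 7, CD11b-positive, CD45-low microglia and O4-positive OPC were sorted from the brain, with 4 libraries of each cell type after each virus. The 16 libraries came from 10 kits, 6 of which gave both cell types.

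Library totals were 6.24 to 17.6 M (mega) counts. The members together held 0.415 to 0.641% of the counts of a microglia library and 0.387 to 0.463% of those of an OPC library. Between 117 and 138 members reached 1 CPM in any 1 library. OPC Ad-PPARg replicate 4 stood apart from the other OPC libraries, in the OPC members and in fits over all genes, and some of its values are given separately below. The sorted cell types could not be checked against markers by name. Raw CPM are on the scale of library totals, whereas the tests scale libraries by TMM, a normalization to the bulk of genes. The difference matters between cell types: the median log2 difference of all genes, OPC over microglia, was -0.0097 with TMM and 0.51 with totals alone.

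The members and the low candidates were described by their length, which the rule bounded, and by their position, which it did not use outside the excluded stretch. All 158 member lengths were multiples of 3, as were 856 of the 881 low candidates (97.2%), against 2528 of the 4927 other single-exon genes (51.3%). Those others had a median length of 128 bases and include 8 genes of the members' size in the excluded regions. No sequence was read, so whether the lengths are coding lengths was not tested. Median length was 1071 bases in members and 939 bases in the low candidates. Lengths of 930 to 960 bases were found in 15 members (9.49%) and in 501 low candidates (56.9%). The low candidates were mostly packed in arrays, with 692 of 881 (78.6%) in 84 groups of neighbours within 100 kb and up to 104 genes in 1 group. Only 7 members (4.43%) lay in such groups of members, in 3 groups with at most 3 genes. Low candidates are more numerous than members, which itself places more of them next to one another. The X chromosome held 13 members (8.23%) and 26 low candidates (2.95%).

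Some members sat close to the edges of the rule. The members nearest the level threshold had 1.05 CPM in the fourth highest of their libraries (chromosome 19, 11697122 to 11698135) and scaffold GL018944, 195995 to 196942). The genes just outside reached 0.961 (scaffold GL019030, 65265 to 66179) and 0.984 (scaffold GL018817, 652942 to 654105). At the length threshold, the shortest members had 906 bases (chromosome 16, 61352242, and X, 72976148) and the longest 1248 bases (chromosome 4, 53489961, and scaffold GL018805, 588394). An X-linked gene of 897 bases (16644314 to 16645210) was left out with 17.1 CPM in microglia and 0.370 CPM in OPC. The other genes just outside were at 29.1 and 20.6 CPM (chromosome 13, 49399339), 6.41 and 4.57 CPM (chromosome 3, 113152502) and 3.15 and 11.2 CPM (scaffold GL018763, 1307603), in microglia and OPC.

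Members fell into cell-type classes of unequal size. A member was called restricted where its mean CPM differed at least 16-fold between the 8 microglia and the 8 OPC libraries, enriched at 4-fold to 16-fold, and shared below 4-fold. By this description 28 members were microglia-restricted, 13 microglia-enriched, 85 shared, 16 OPC-enriched and 16 OPC-restricted. Microglia and OPC libraries did not overlap for any member of the restricted classes, which follows closely from the 16-fold rule on the same libraries. Among all 14297 genes that reached 1 CPM in 4 libraries, 4.64% were at least 16-fold higher in microglia and 6.83% at least 16-fold higher in OPC. In these sorted populations, fewer cells of a type and less RNA per cell cannot be told apart. With TMM-scaled levels, 29 members were microglia-restricted and 12 OPC-restricted.

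**Figure D1:**
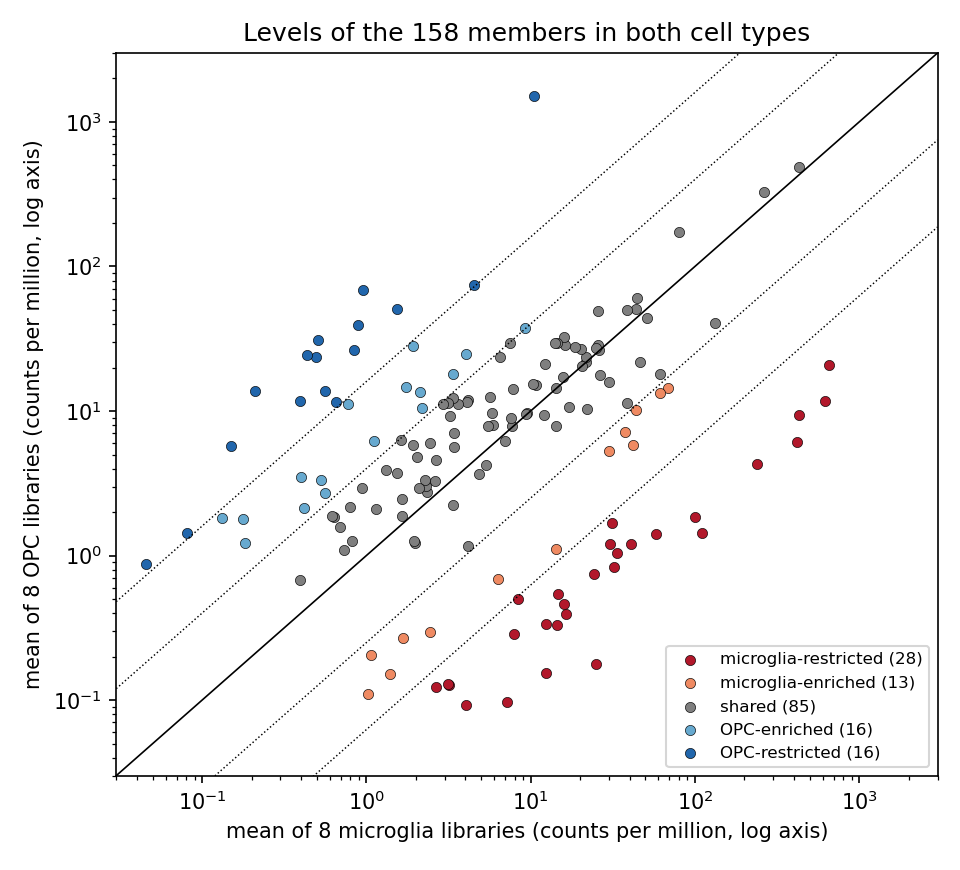
Mean CPM of each of the 158 members in the 8 microglia libraries (x axis, log) and the 8 OPC libraries (y axis, log), with the solid line at equality and dotted lines at 4-fold and 16-fold. The 28 microglia-restricted members reach 656.6 CPM in microglia, and 1 OPC-restricted member stands alone at 1517 CPM in OPC.

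The edgeR fit of all 16 libraries called 68.5% of all genes different between the cell types, 35.1% higher in OPC and 33.4% higher in microglia (adjusted p under 0.05). Members that reached 1 CPM in 4 libraries of only 1 cell type entered through the cell type where they were higher, so the count is given for the 105 members that reached it in both. OPC had the higher level for 32 of these and microglia for 43. With library totals in place of TMM these numbers were 45 and 30, so the direction held by more members depended on the scaling. Another 24 members reached the level in microglia alone, 28 in OPC alone and 1 in neither alone (chromosome 15, 8858099). The libraries of the cell types did not overlap in raw CPM for 52 of the 105 (49.5%), with OPC above for 30 (28.6%) and microglia above for 22 (21.0%). The shares among all genes tested were 46.7% in all, 31.9% with OPC above and 14.9% with microglia above. These shares, and the called shares above, also cover genes at the level in only 1 cell type, unlike the 105.

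The most abundant microglia-restricted member was ENSOCUG00000003400 on chromosome 5 (558193 to 559128, 936 bases). It lay between 319 and 1056 CPM in microglia (median 631) and between 3.85 and 45.5 CPM in OPC (median 21.5). Its means were 656.6 ± 254.2 and 20.9 ± 12.1 CPM (SD, n = 8 each). All microglia libraries were above all OPC libraries, as for every member of the class. ENSOCUG00000003220 on the X chromosome (26982039 to 26983169, 1131 bases) lay between 337 and 955 CPM in microglia (median 593) and between 2.03 and 21.9 CPM in OPC (median 11.7). Its highest microglia library was Ad-GFP replicate 2 and its highest OPC library Ad-PPARg replicate 4.

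Of the other abundant microglia-restricted members, that on chromosome 14 (45257156 to 45258211) averaged 428.7 ± 172.4 CPM in microglia and 9.44 ± 5.07 CPM in OPC (SD, n = 8 each). That on scaffold GL018835 (582476 to 583528) averaged 418.2 ± 47.4 and 6.06 ± 3.60 CPM, and was the steadiest of the 6 across microglia libraries, at 340 to 474 CPM. Those on chromosome 9 (14560704 to 14561762) and chromosome 13 (137360752 to 137361780) averaged 237.6 ± 76.4 and 111.1 ± 20.6 CPM in microglia. In OPC the same pair averaged 4.30 ± 2.74 and 1.43 ± 0.989 CPM. Per kilobase of length, levels in microglia ran from 702 CPM for the chromosome 5 member down to 108 CPM for the chromosome 13 member. The whole class had a median of 23.2 CPM per kilobase and a lowest value of 2.44.

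OPC were led by 1 gene. ENSOCUG00000011371 on chromosome 7 (59381243 to 59382286, 1044 bases) lay between 1105 and 2039 CPM in OPC (median 1463) and between 1.34 and 35.6 CPM in microglia (median 7.08). Its means were 1517 ± 322 CPM in OPC and 10.5 ± 10.8 CPM in microglia (SD, n = 8 each), a ratio of 144.6, and no library of 1 cell type came near the other. It alone made up 69.6 to 88.9% of the summed level of the OPC-restricted members in an OPC library, highest in OPC Ad-PPARg replicate 4. At 1453 CPM per kilobase in OPC this gene was above the most abundant microglia-restricted member in microglia. Without this gene, the share of OPC counts held by the members was 0.237 to 0.316%, lowest in OPC Ad-PPARg replicate 4.

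The remaining OPC-restricted members were less abundant. ENSOCUG00000009608 on chromosome 8 (82254833 to 82255780) averaged 74.6 ± 32.2 CPM in OPC and 4.54 CPM in microglia, a ratio of 16.4 that only just met the restricted class. Those on chromosome 7 (24574931 to 24576049) and chromosome 13 (33059472 to 33060611) averaged 68.4 ± 22.9 and 50.8 ± 7.74 CPM in OPC. The X-linked member at 34633281 to 34634402 averaged 39.2 ± 4.54 CPM and that on chromosome 3 (24308193 to 24309155) 31.0 ± 13.4 CPM (SD, n = 8 each). In microglia these 4 averaged 0.508 to 1.53 CPM. The class median in OPC was 21.3 CPM per kilobase, beside 23.2 for microglia-restricted members in microglia.

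**Figure D2:**
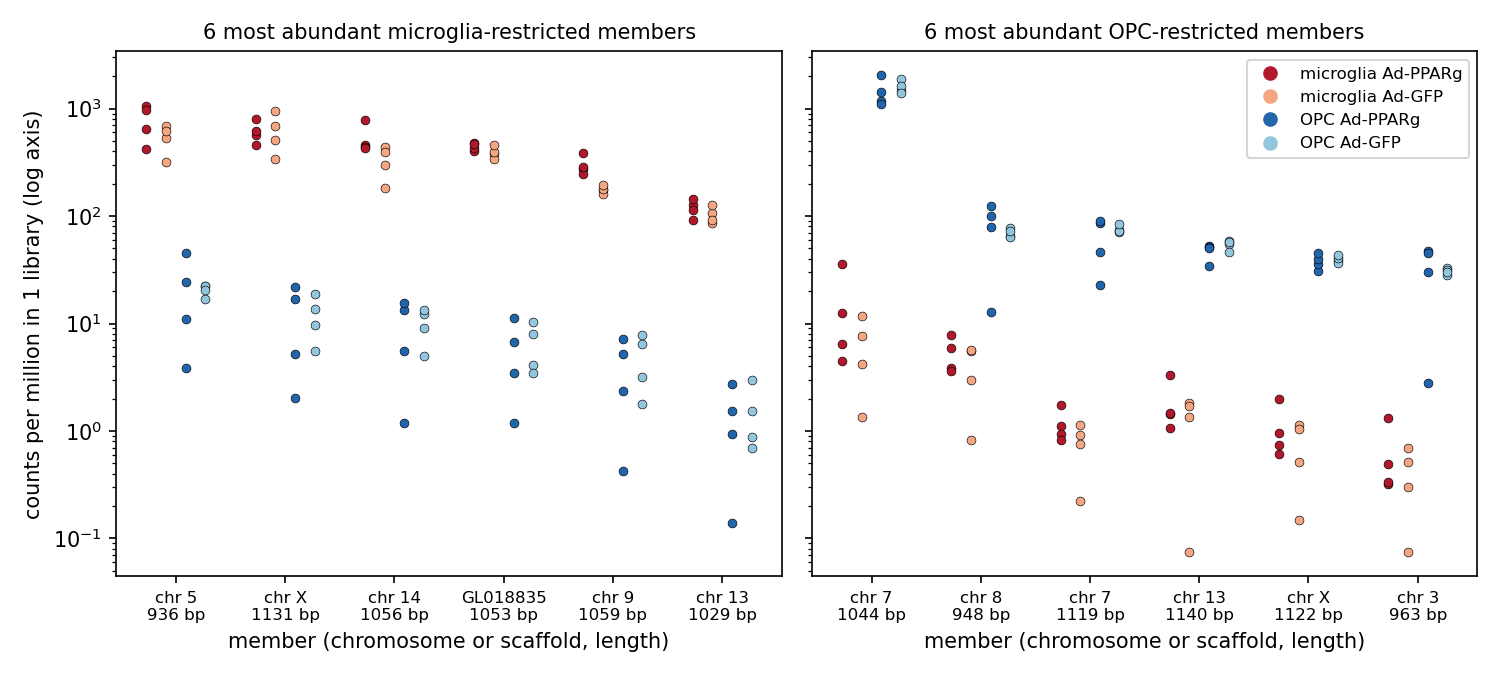
CPM in each library (y axis, log) of the 6 most abundant microglia-restricted and the 6 most abundant OPC-restricted members, coloured by cell type and virus. In the left panel no microglia library overlaps an OPC library; in the right panel 1 OPC Ad-PPARg library falls to 2.82 CPM for the chromosome 3 member and stays above microglia.

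Low levels of each restricted class were measured in the other cell type. The 28 microglia-restricted members summed to 1869 to 4152 CPM in microglia and to 15.6 to 123 CPM in OPC, 0.524 to 4.16% of the microglia mean. OPC Ad-PPARg replicate 1 was lowest for 15 of the 28 and OPC Ad-PPARg replicate 2 was highest for 16, whereas OPC Ad-PPARg replicate 4 was lowest for 5 and highest for 3. Member by member, the OPC mean was 0.711 to 5.97% of the microglia mean (median 2.66%). The 16 OPC-restricted members summed to 1501 to 2295 CPM in OPC and to 3.27 to 58.4 CPM in microglia. Microglia Ad-GFP replicate 1 was lowest for 11 of these 16, and microglia Ad-PPARg replicate 3 highest for 8. In the latter library the chromosome 7 member at 59381243 made up 61.0% of the summed level. Whether these levels come from a few cells of the other type was not tested.

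Shared members reached the same order of abundance. That on scaffold GL018805 (588394 to 589641) averaged 432.5 ± 21.6 CPM in microglia and 485 ± 37.3 CPM in OPC, with libraries that overlapped. That on chromosome 1 (67461815 to 67462816) averaged 262.7 ± 70.0 and 329.7 ± 44.8 CPM. That on chromosome 3 (23346058 to 23347107) averaged 79.9 ± 11.2 and 174.3 ± 28.4 CPM, and that on scaffold GL018924 (159872 to 160837) 132.0 ± 25.1 and 40.5 ± 9.62 CPM (SD, n = 8 each). The libraries of the last pair did not overlap between cell types, although both differed by less than 4-fold in mean raw CPM. With TMM their edgeR log2 differences, OPC over microglia, were 0.61 and -2.24, the latter past 4-fold. The GL018805 and chromosome 1 members had the higher raw mean in OPC but TMM-scaled differences of -0.36 (edgeR adjusted p = 0.00135) and -0.18 (edgeR adjusted p = 0.211). Of the 85 shared members, 22 (25.9%) were called higher in OPC and 26 (30.6%) higher in microglia. Among all genes tested the shares were 35.1% and 33.4%. The class was bounded by the ratio of mean raw CPM in these same libraries, so its called shares are description only.

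OPC Ad-PPARg replicate 4 departed from the other OPC libraries mainly downward. It was the lowest of 8 for 17 of the 32 OPC-restricted and OPC-enriched members and the highest for 7. OPC Ad-PPARg replicates 2 and 3 were each the highest for 7 too. For 9 of the 32, replicate 4 was below 50% of the next lowest library. That was the case for 1 member in OPC Ad-PPARg replicate 1 and for none in the other 6 libraries. The chromosome 3 member at 24308193 was at 2.82 CPM in it and at 28.3 to 46.9 CPM in the other 7. The chromosome 8 member at 82254833 was at 12.8 CPM in it and at 63.8 to 125 CPM in the others. The chromosome 7 member at 59381243 had its highest level, 2039 CPM, in the same library. Fits over all genes also changed without this library. For the treatment in OPC, 166 genes had an unadjusted edgeR p under 0.05 with it and 1044 without it.

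**Figure D3:**
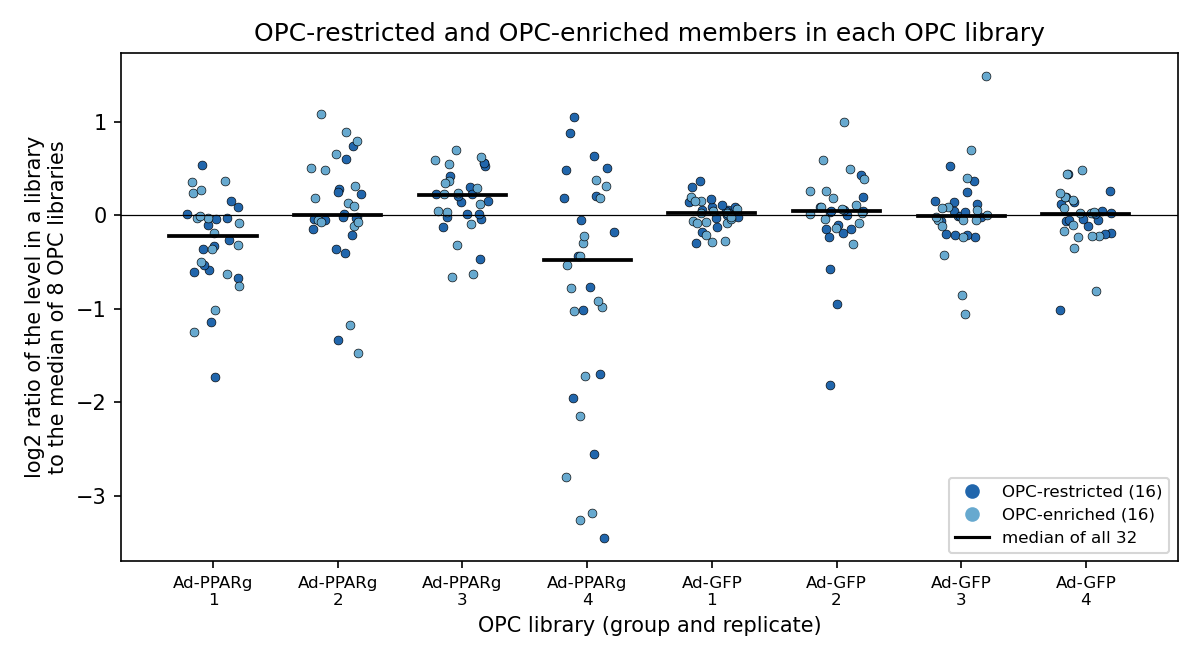
Log2 ratio of the level of each of the 32 OPC-restricted and OPC-enriched members in an OPC library to its median over the 8 OPC libraries (y axis), by library (x axis), with the median of the 32 as a bar. Replicate 4 after Ad-PPARg has a median of -0.48 and spreads furthest downward.

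Another annotated gene was overlapped by 11 members (6.96%), all of which lay on the strand opposite to it. The share was 2.5% of the low candidates, 26.8% of the other single-exon genes and 19.8% of all genes. Of the 11 members, 9 belonged to the 41 microglia-restricted and microglia-enriched members, 2 to the 32 OPC-restricted and OPC-enriched members and 0 to the 85 shared ones. Between the exons of the other gene lay 10 of them, and 1 shared exon bases with it (chromosome 1, 91203056, OPC-enriched). The files do not say how counting treated strand, so reads from unspliced RNA of the outer gene and from the member cannot be told apart.

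The outer genes did not all follow their members. Of the 9 outer genes, 4 had the higher mean raw CPM in the same cell type as their members and 5 in the other, whereas with TMM-scaled levels 7 went the same way and 2 (around the X member at 26982039 and the chromosome 9 member at 1450560) the other way. On chromosome 14, a gene with 43 exon entries (44999874 to 45353011) held 3 microglia-restricted members. The outer gene averaged 27.7 ± 12.8 CPM in microglia and 28.6 ± 7.04 CPM in OPC (SD, n = 8 each), with overlapping libraries. Its 3 inner genes were at least 16-fold apart by the class rule, and libraries did not overlap for any of the 28 members of that class. On the X chromosome, the gene around the member at 26982039 averaged 50.4 ± 8.49 CPM in microglia and 172.3 ± 35.4 CPM in OPC, the reverse order of the member. On chromosome 8, the gene around the microglia-restricted member at 100988106 averaged 35.05 ± 4.08 and 45.6 ± 11.5 CPM (higher in microglia with TMM-scaled levels), beside 7.95 and 0.289 CPM for the member. On chromosome 7 both went the same way: the gene around the member at 59381243 averaged 1.83 ± 1.17 CPM in microglia and 218.2 ± 63.7 CPM in OPC.

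Members that were neighbours were few, and the tightest groups were microglia-restricted throughout. On chromosome 9, 3 members lay on the plus strand within 34.0 kb (14545405 to 14579394), 14189 and 16567 bases apart, with no other annotated gene between them. They averaged 33.8, 237.6 and 16.03 CPM in microglia and 1.03, 4.30 and 0.460 CPM in OPC, in order of position. Another microglia-restricted member on the minus strand (14443034 to 14444089) lay 101315 bases away, just past the 100 kb limit, and averaged 100.2 CPM in microglia and 1.85 CPM in OPC. The microglia libraries were above the OPC libraries for all 4, as for all 28 members of the class, which was defined by this difference.

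On chromosome 14, 2 members on the minus strand lay 8168 bases apart (45247974 to 45258211) and averaged 57.6 and 428.7 CPM in microglia and 1.40 and 9.44 CPM in OPC. The third member inside the same outer gene (45135899 to 45136915) lay 111058 bases from them and averaged 40.6 and 1.21 CPM. The remaining group mixed classes. On scaffold GL018805, the abundant shared member at 588394 lay 91464 bases from an OPC-enriched member (681106 to 682278) with 4.04 CPM in microglia and 24.8 CPM in OPC. No OPC-restricted member had a member within 100 kb. At a limit of 500 kb, 23 members lay in groups.

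**Figure D4:**
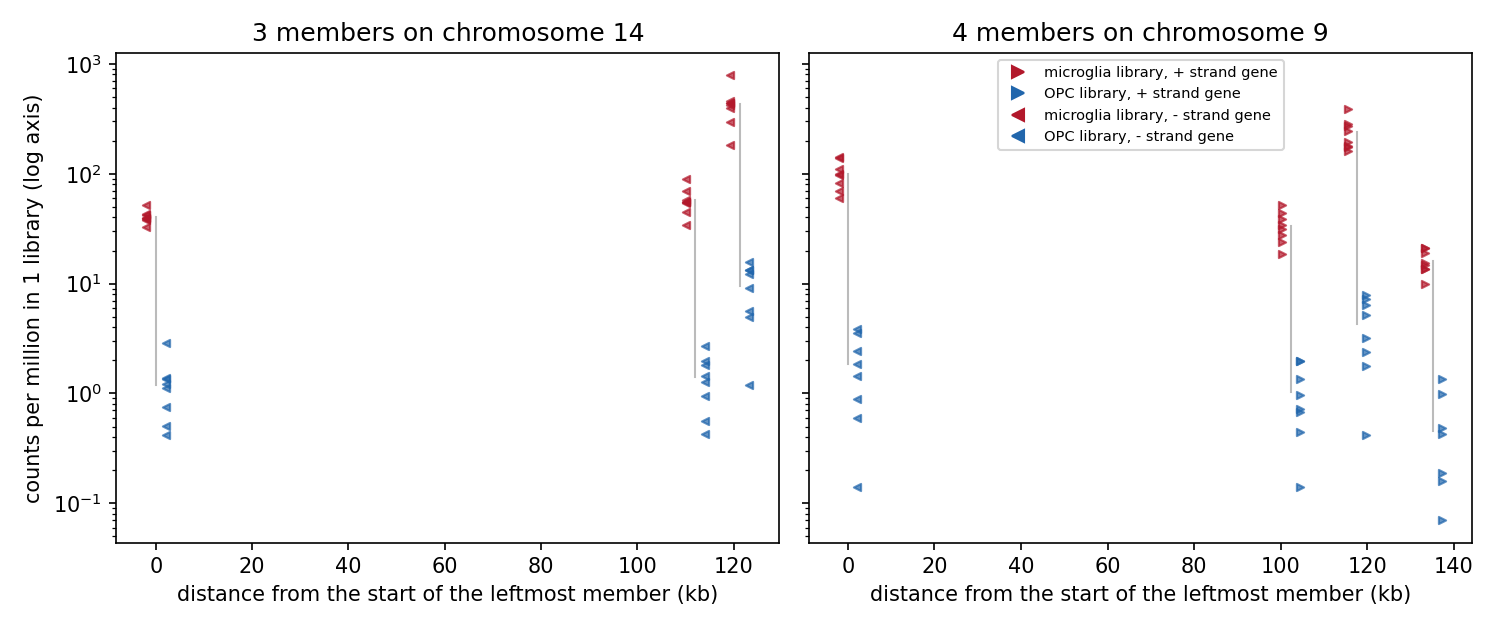
CPM in each microglia (red) and OPC (blue) library (y axis, log) against distance from the leftmost member (x axis, kb) for 3 members on chromosome 14 and 4 on chromosome 9, with arrowheads for the strand. Red lies above blue at every gene, and all were classed by this difference. The 1 OPC library at 0 for the rightmost chromosome 9 member is not drawn.

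The treatment comparison asks what the labels name, the effect of added PPARg on each cell type. In microglia, 137 members were tested and 0 passed an adjusted p of 0.05 in edgeR, as did 0 of all 13041 genes (0%). By DESeq2, 3 of the 82 members with an adjusted p passed (3.66%), against 1.04% of all genes with one. At an unadjusted edgeR p under 0.05 there were 14 members, 8 with a positive and 6 with a negative fold change. They were 10.2% of the members tested, against 11.4% of all genes tested (4.88% positive and 6.54% negative). The median log2 fold change was 0.10 for the 137 members and 0.027 for all genes. The Ad-PPARg and Ad-GFP libraries did not overlap for 10 members (7 higher, 3 lower), against 4.88% of all genes (3.22% higher, 1.66% lower).

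Microglia-restricted members made up 8 of those 14. Of the 28 in the class, 20 had a positive and 8 a negative log2 fold change, with a median of 0.19, and 6 were higher and 2 lower at an unadjusted p under 0.05. Of all genes tested, 53.6% were positive, and 4.88% were higher and 6.54% lower at that p. The summed level of the class was 2731, 2837, 3591 and 4152 CPM in the Ad-PPARg libraries and 1869, 2949, 2895 and 2724 CPM in the Ad-GFP libraries. The groups overlapped, with the highest values after Ad-PPARg and the lowest after Ad-GFP. The lowest sum was that of Ad-GFP replicate 1, which was the lowest library for 11 of the 28. Without it, 19 were positive and 9 negative, with a median of 0.20. Leaving out any other library gave 18 to 21 positive and medians of 0.14 to 0.32. The 6 members higher at an unadjusted p under 0.05 became 3 without Ad-PPARg replicate 3 or 4 or Ad-GFP replicate 1 or 2, and 2 without Ad-GFP replicate 3. In the same order, the 636 higher of all genes became 351, 405, 510, 549 and 355. The 2 members lower became 1 without Ad-GFP replicate 2 or 3, and 3 without Ad-PPARg replicate 1 or 4 or Ad-GFP replicate 1 or 4. The 853 lower of all genes became 608 and 464, and 764, 638, 474 and 1488, in these fits. The 7 OPC-restricted members tested in microglia were positive in 7 of 7, with a median of 0.53, beside 53.6% positive among all genes. Their median SE was 0.65 and their lowest unadjusted edgeR p 0.150. The summed level of all 16 of that class was 21.8, 15.9, 58.4 and 21.98 CPM in the Ad-PPARg libraries and 3.27, 23.8, 23.6 and 13.6 CPM in the Ad-GFP libraries, lowest again in Ad-GFP replicate 1. Without that library 7 of the 8 then tested were positive, with a median of 0.23, and without Ad-PPARg replicate 3 there were 6 of 7, with a median of 0.15. The part of these levels in the direction of the microglia-restricted members was not tested.

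The lowest p among higher members was that of ENSOCUG00000003665, the middle gene of the chromosome 9 group. Its microglia levels were 272.5, 246.9, 283.3 and 387.3 CPM after Ad-PPARg and 175.5, 160.7, 179.2 and 194.97 CPM after Ad-GFP. Every Ad-PPARg library was above every Ad-GFP library. Its log2 fold change was 0.67 (SE 0.16, n = 4 against 4, edgeR unadjusted p = 0.00214, adjusted p = 0.409). By DESeq2 its adjusted p was 0.0313, and over all alternatives it ranged from 0.0313 to 0.858.

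Its minus-strand neighbour ENSOCUG00000003658 (14443034) had 111.3, 98.6, 142.9 and 139.2 CPM after Ad-PPARg and 59.8, 70.3, 81.7 and 98.1 CPM after Ad-GFP. The groups touched closely without overlapping. Its log2 fold change was 0.60 (SE 0.17, edgeR unadjusted p = 0.00604, adjusted p = 0.409). The first and last members of the group, at 14545405 and 14578330, had log2 fold changes of 0.50 (SE 0.21) and 0.26 (SE 0.23). The 3 chromosome 14 neighbours had 0.16, 0.41 and 0.62, in order of position, with SE of 0.13, 0.21 and 0.30. All 7 estimates were positive and 0 passed the adjusted threshold. The 4 Ad-PPARg libraries and the 4 Ad-GFP libraries come from kits whose identifier prefixes are not shared between treatments, so that prefix and treatment cannot be told apart. With counts summed per prefix, 3 against 3, 6 of 137 members (4.38%) had an unadjusted edgeR p under 0.05, against 4.08% of all genes tested.

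The lowest p of any member belonged to ENSOCUG00000027072 on scaffold GL018705 (2390839 to 2391882), a weakly expressed microglia-restricted member. It had 0.801, 1.82, 1.26 and 0.574 CPM after Ad-PPARg and 1.93, 4.602, 4.71 and 9.49 CPM after Ad-GFP, without overlap. Its log2 fold change was -2.22 (SE 0.53, edgeR unadjusted p = 0.00207, adjusted p = 0.409). The shared member ENSOCUG00000022657 on chromosome 1 (67461815) had 219.0, 248.4, 195.6 and 187.8 CPM after Ad-PPARg and 402.6, 265.5, 270.6 and 312.0 CPM after Ad-GFP. These did not overlap either, and its log2 fold change was -0.64 (SE 0.17, edgeR adjusted p = 0.409, DESeq2 adjusted p = 0.0497, 0.0497 to 0.858 over the alternatives).

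The other member called by DESeq2, a shared gene on chromosome 14 (46854540 to 46855538), was singled out after its values were seen. It had 17.3, 33.9, 12.2 and 12.6 CPM after Ad-PPARg and 44.1, 46.1, 40.7 and 31.9 CPM after Ad-GFP. Replicate 2 after Ad-PPARg was the library that overlapped, and without it the edgeR log2 fold change went from -1.18 (SE 0.33, adjusted p = 0.409) to -1.65 (SE 0.19, adjusted p = 0.0445). Its adjusted p over all alternatives ranged from 0.0445 to 0.858.

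**Figure D5:**
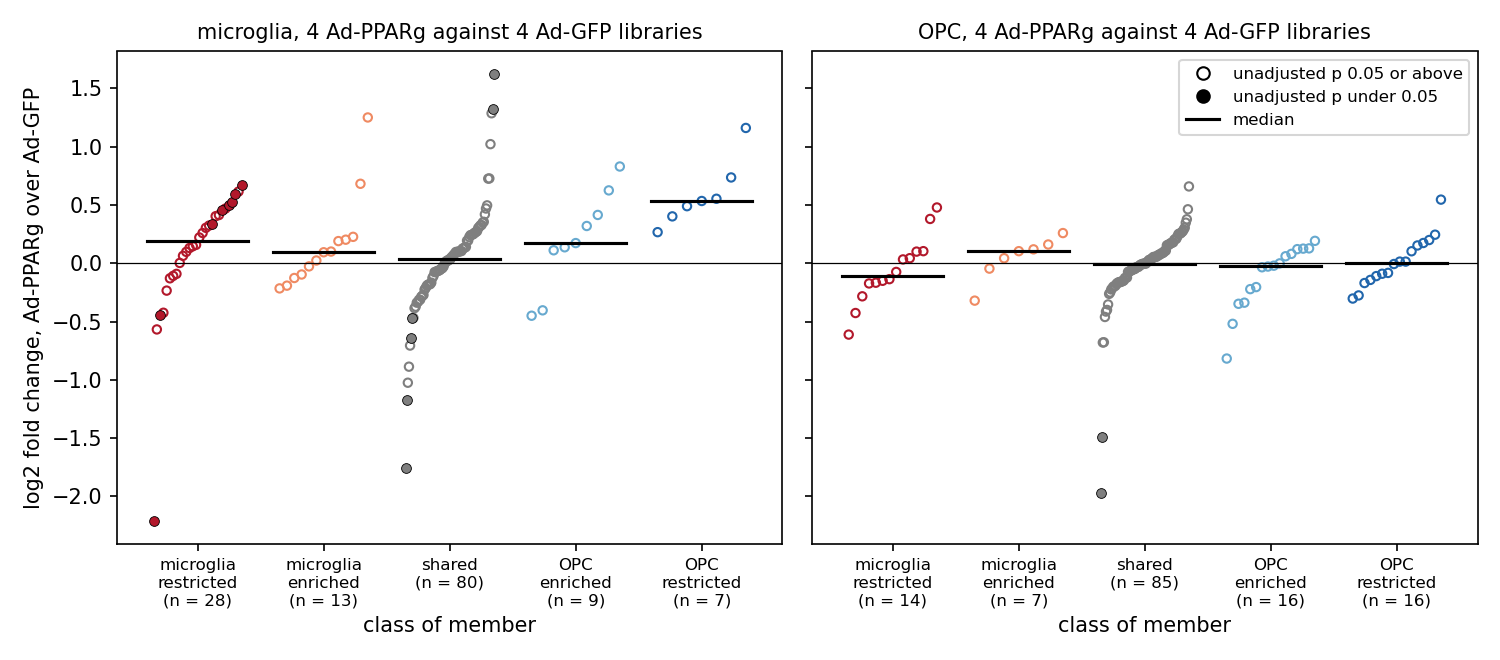
Log2 fold change of Ad-PPARg over Ad-GFP (y axis) for each member tested in microglia (left) and OPC (right), ordered within its class, with the class median as a bar and filled points at an unadjusted edgeR p under 0.05. In microglia 14 points are filled, 8 of them microglia-restricted; in OPC 2 are filled, both shared.

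In OPC no member passed either. Of 138 tested, 0 passed an adjusted p of 0.05 in edgeR, as did 0 of all 13492 genes (0%), and 0 passed in DESeq2, against 0.0314% of all genes. At an unadjusted p under 0.05, 2 were lower and 0 higher. Among all genes tested the share was 1.23%, 0.467% lower and 0.763% higher. Positive log2 fold changes were found for 66 and negative ones for 72, with a median of -0.0032 beside 0.032 for all genes. The 16 OPC-restricted members split into 8 and 8, with values of -0.30 to 0.55. The libraries did not overlap for 3 members, all lower after Ad-PPARg, against 1.2% of all genes (0.704% lower).

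Both OPC members with an unadjusted p under 0.05 were shared and weakly expressed. ENSOCUG00000025196 on scaffold GL018730 (2576984 to 2578186) had 2.24, 1.91, 2.03 and 0.645 CPM after Ad-PPARg and 5.20, 17.0, 2.77 and 2.29 CPM after Ad-GFP. Its groups did not overlap, with 1 high Ad-GFP library, and its log2 fold change was -1.97 (SE 0.67, edgeR unadjusted p = 0.0154, adjusted p = 1.00), and -1.003 without that library, Ad-GFP replicate 2. ENSOCUG00000027388 on scaffold GL018789 (415379 to 416572) had 0.560, 0.797, 0.593 and 0.403 CPM after Ad-PPARg and 0.887, 1.20, 3.77 and 1.07 CPM after Ad-GFP, a log2 fold change of -1.50 (SE 0.55), and -0.79 without Ad-GFP replicate 3. The higher members lowest in p, ENSOCUG00000029302 on chromosome 4 (80759293) and ENSOCUG00000028995 on scaffold GL018786 (1033000), had 0.66 (SE 0.40) and 0.38 (SE 0.23). Without OPC Ad-PPARg replicate 4, the library that stood apart, 10 of 138 members (7.25%) had an unadjusted edgeR p under 0.05, 3 higher and 7 lower, against 7.59% of all genes tested, and still 0 passed the adjusted threshold.

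A test of the difference itself called no member. Of 158 members, 0 passed an adjusted p of 0.05 for the interaction in edgeR (lowest adjusted p = 0.997), as did 0 of all 14699 genes (0%). At an unadjusted p under 0.05 there were 7, of which 4 were more positive and 3 more negative in OPC, against 2.73% of all genes tested (1.2% and 1.53%). In limma voom with the kit as a block there were 6, against 3.17% of all genes tested. The lowest p belonged to the GL018705 member at 2390839, whose estimate of 4.16 (SE 1.14, edgeR unadjusted p = 0.00214) rested on 0 to 5 counts per OPC library. The next was the chromosome 8 member at 100988106, with 2.23 (SE 0.82). For the chromosome 9 neighbours, the OPC estimates of the effect were -0.28 (SE 0.74) for the member at 14560704 and -0.43 (SE 0.81) for that at 14443034, with SE larger than the microglia estimates.

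The share of all counts held by the members in microglia was 0.554% ± 0.0726 with PPARg and 0.483% ± 0.0461 with the control virus, and in OPC 0.426% ± 0.0279 and 0.446% ± 0.0148 (SD, n = 4 each). These values overlapped between treatments in both cell types.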

How the data were processed

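Each deposited file holds the unnormalized counts of 1 library over all genes, as whole numbers. Per the submitters' processing notes bcl2fastq 2.17, STAR 2.5.2b and Subread 1.5.2 were used, with no role given. Genome build, annotation release and strand setting: not given in the sources used here. Coordinates are as the files give them. The members, classes and lists were chosen with earlier results of these data known. Marker lists by symbol could not be used, since identifiers have no names.

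Levels are raw CPM. Tests were edgeR 4.0.16 quasi-likelihood fits (R 4.3.3, robust, TMM, default low-count filter) over all genes with Benjamini-Hochberg adjustment at 0.05. Each treatment comparison used 8 libraries, and the comparison of cell types and the difference of effects used all 16. DESeq2 1.42.0 and limma 3.58.1 were alternatives. In simulated data, changes were placed in a sample of the better expressed genes only, and every gene had 1 common starting level across groups. Of the changed genes, 2-fold and 4-fold changes were recovered in 53% and 94% for microglia (12788 genes fitted) and 30% and 86% for OPC (13348). Recovery was 13% and 76% for the difference (14335) and 76% and 98% between cell types (14330). Recovery in weakly expressed genes was not simulated. Libraries of a group came from different kits, and in all 24 pairs inside a group the chi-square per gene was 6.57 to 211, so none was counted as a repeat. Pairs with OPC Ad-PPARg replicate 4 were at 177.5, 193.8 and 211.4, and every other pair was at 90.02 or below. For the 6 kits with both cell types, named in the labels, deviations from group means correlated at -0.116 to 0.265 (median 0.0596).

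Named were the 6 microglia-restricted and 6 OPC-restricted members of highest mean CPM, the 4 most abundant shared ones, all in groups within 100 kb, the 2 higher and 2 lower lowest in p per treatment comparison, the 2 lowest in p for the difference, and those nearest the thresholds. Totals of 6.24 to 17.6 M make counting error small except in members of a few counts.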

Additional observations from a re-analysis of the deposited data

Results flagged for a closer look

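Among 112 tests of a single library against the 3 others of its group, 8 gave a gap beyond Dixon's 95% value for 4 samples, where chance gives about 1 in 20. In microglia, the chromosome 14 member at 45257156 was at 787.4 CPM in Ad-PPARg replicate 4 (others 425.7 to 457.2). The chromosome 8 member at 100988106 was at 11.53 CPM in Ad-PPARg replicate 1 (others 5.168 to 6.043). The chromosome 3 member at 24308193 was at 1.335 CPM in Ad-PPARg replicate 3 (others 0.3204 to 0.4922). The GL018730 member at 2576984 was at 20.51 CPM in Ad-GFP replicate 1 (others 2.459 to 5.452), the library in which the members' share of counts was 0.4148% (others 0.4979 to 0.5118%). In OPC, the chromosome 7 member at 24574931 was at 83.71 CPM in Ad-GFP replicate 4 (others 71.85 to 73.52). The chromosome 13 member at 33059472 was at 34.32 CPM in Ad-PPARg replicate 1 (others 50.67 to 52.99), and the GL018789 member at 415379 at 3.767 CPM in Ad-GFP replicate 3 (others 0.887 to 1.2).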

How the results depend on the processing

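Of the alternatives to counts and shares over the members, 149 stayed within 1.5 times or within the replicate spread and 15 did not. The 149 include counts of 0 in both fits. They also include library totals in place of TMM, which swapped which cell type had more called members. Single members were followed only in a comparison where they were picked as lowest in p, so their direction was likelier to hold. Of their alternatives, 136 kept direction and side of the threshold, 2 passed it by DESeq2 (log2 fold changes 0.67 and -0.64) and 0 reversed. At 32-fold, 9 members were OPC-restricted, and at 500 kb 23 lay in groups. DESeq2 called 3 members in microglia, where edgeR called 0, and 0 to 1 with a library left out (1 without Ad-PPARg replicate 2). Members with an unadjusted p under 0.05 in microglia were 8 of 140 (without Ad-GFP replicate 3) to 22 of 140 (without Ad-GFP replicate 4). With counts summed per identifier prefix they were 6. All genes moved alike: 819 of 13587 had such a p without Ad-GFP replicate 3, 2801 of 13197 without Ad-GFP replicate 4 and 542 of 13290 summed per prefix. In OPC such members were 1 (without Ad-PPARg replicate 3, Ad-GFP replicate 2 or Ad-GFP replicate 3, or summed per prefix), 4 without Ad-PPARg replicate 2 and 10 without Ad-PPARg replicate 4. The counts over all genes in these fits were, in that order, 229 of 13738, 131 of 13706, 111 of 13595, 45 of 14524, 328 of 13557 and 1044 of 13763. For the difference, such members were 4 (without microglia Ad-GFP replicate 1 or OPC Ad-GFP replicate 3) to 9 (without OPC Ad-PPARg replicate 2). Over all genes these fits gave 270 of 15174, 286 of 14913 and 792 of 14926. The cause was not tested. With the kit as a replicate block in the 12 libraries of paired kits, 33 members were higher in OPC and 43 in microglia, and without the block the same libraries gave 32 and 43. For the difference of effects the block (limma voom) gave 6 members with an unadjusted p under 0.05, as did limma voom without it. Within 1 cell type no kits are paired. TMM-scaled classes and outer-gene levels, the fit without a block and the share without the top OPC member were added after seeing the data.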
